A study of Glycine max with 6 samples.

Results

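The genes described here are 9 components of the soybean circadian clock, taken by their identifiers from the 56044 genes of the count table. They comprise 4 copies of LHY (LHY1a, LHY1b, LHY2a and LHY2b), 3 copies of GIGANTEA (GIa, GIb and GIc), the ELF3 gene known as the J locus, and PRR3b. All 9 had enough counts to be tested. Leaf RNA of soybean (Glycine max) wild-type plants of the cultivar BR16, grown in pots of soil in a greenhouse, was sequenced at 80 days and at 20 days after germination (DAG), in 3 libraries per age. The 80 DAG leaves were at the late reproductive stage R7 and the 20 DAG leaves at the vegetative stage V3, whereas the deposited labels describe both ages as vegetative. Both the third and the seventh trifoliate leaf were sampled, as disks of the middle leaflet, and the stage to which each leaf belongs is not given in the sources used here. The hour of harvest, which matters for clock genes, is not given either. Age, developmental stage, leaf position and hour of harvest therefore cannot be told apart in this comparison.

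The plant circadian clock is a set of genes that repress and activate each other in turn over the day, so that the RNA of each gene peaks at its own hour. In Arabidopsis, the MYB transcription factor LHY accumulates around dawn and represses genes of the evening, among them GIGANTEA and ELF3. GIGANTEA binds the blue-light receptors of the F-box class in the afternoon and is required for the timing of flowering. ELF3 is the scaffold of the evening complex, which represses transcription at dusk and in the night, and the pseudo-response regulators, the class to which PRR3b belongs, repress LHY during the day. In soybean, genome duplications have left several copies of most of these genes. GIa is the maturity gene E2, and J is the gene behind the long-juvenile trait, and both act on flowering time.

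Libraries held between 10758425 and 15883253 counts, and the number of genes detected with 1 count or more was 36691 to 39834 per library. The 50 most abundant genes took between 41.8% and 54.0% of the counts. Expression is given as CPM, the counts scaled to a common library size after TMM normalization, and the ages were compared with edgeR's quasi-likelihood test over 30058 genes with Benjamini-Hochberg adjustment. A gene was called differentially expressed (DE) at an adjusted p under 0.05. CPM is not corrected for gene length, so levels were not ranked between genes.

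Most of the clock genes differed strongly between the 2 ages, and their directions split by gene. Stage, leaf position and hour of harvest cannot be told apart from age in this difference. The 4 LHY copies were down-regulated at 80 DAG, by 7.02-fold to 51.6-fold. GIb, GIc and ELF3 were up-regulated, by 2.37-fold to 20.7-fold. GIa and PRR3b were not past the threshold. Thus 7 of the 9 members were DE, whereas 49.1% of all tested genes were DE, 23.1% with higher and 26.0% with lower expression at 80 DAG. DESeq2 called 8 of the 9 members, and 49.3% of its tested genes. Separate expression values at the 2 ages were seen for 8 of the 9 members, and for 60.8% of all tested genes. The members are abundant, at percentiles 90.3 to 99.6 of mean CPM among tested genes. The shares over all tested genes include genes of low counts, where a change is harder to call, and are not matched for abundance. Copies of LHY and of GI are also related genes rather than separate cases. The median absolute log2 fold change was 2.81 over the 9 members and 0.715 over all tested genes. Leaf samples are mixtures of cells, and fewer cells of a type and less RNA per cell cannot be told apart.

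**Figure D1:**
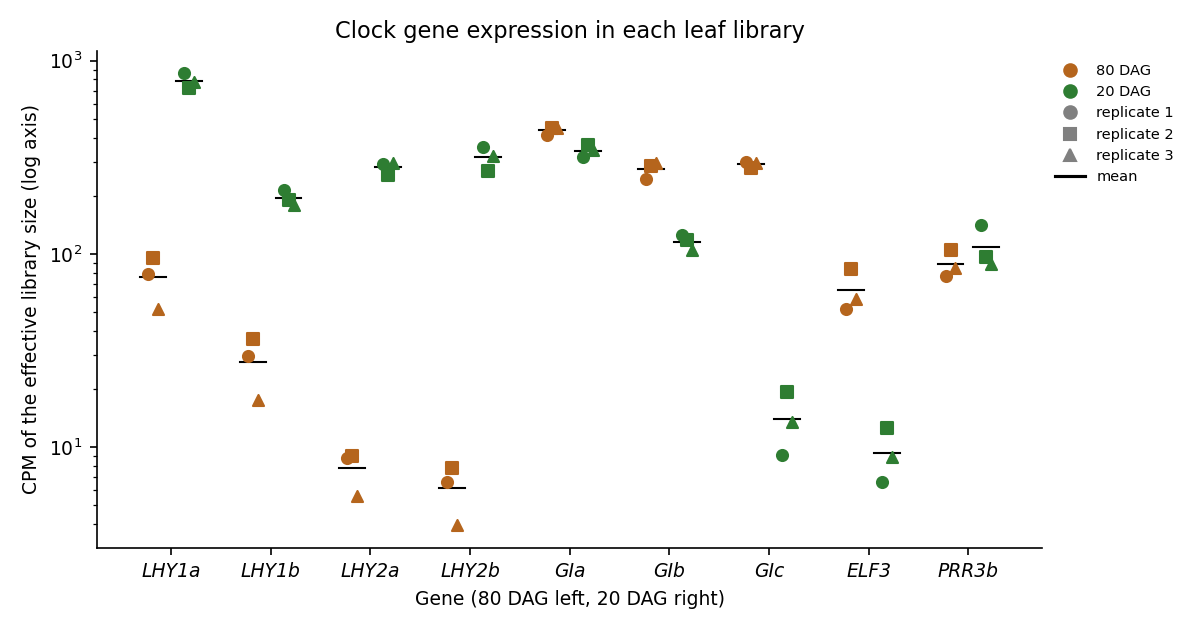
Expression of the 9 clock genes in CPM (log axis), with 80 DAG left of 20 DAG for each gene, a symbol for each library and a black line for the mean of 3 libraries. The LHY libraries of 80 DAG sit far below those of 20 DAG, the GIc and ELF3 libraries of 80 DAG sit far above, and those of PRR3b overlap.

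LHY1a (Glyma.16G017400, chromosome 16), listed by RefSeq under the symbol LCL1, encodes the dawn MYB factor. It had 79.2, 95.9 and 51.9 CPM in the 80 DAG libraries, against 860, 718 and 772 CPM in the 20 DAG libraries. The lowest 20 DAG library was thus several times above the highest 80 DAG library. The mean was 75.7 ± 22.2 CPM at 80 DAG and 784 ± 71.7 CPM at 20 DAG (SD, n = 3 each). LHY1a fell with a log2 fold change of −3.37 (95% interval −4.10 to −2.64, standard error 0.31, adjusted p = 0.00025 in edgeR). Its duplicate LHY1b (Glyma.07G048500, chromosome 7; LCL4 in RefSeq) had 29.6, 36.1 and 17.6 CPM at 80 DAG, against 214, 191 and 180 CPM at 20 DAG. LHY1b fell with a log2 fold change of −2.81 (95% interval −3.51 to −2.11, standard error 0.30, adjusted p = 0.000419 from edgeR's test), the smallest fall among the LHY copies.

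The LHY2 copies fell further. LHY2a (Glyma.19G260900, chromosome 19; LCL3 in RefSeq) had 8.79, 8.97 and 5.62 CPM in the 80 DAG libraries, against 291, 257 and 297 CPM in the 20 DAG libraries. These levels correspond to 162, 109 and 81 raw counts at 80 DAG and to 2730, 3306 and 2972 at 20 DAG, so that no library was close to 0 counts. The log2 fold change of LHY2a was −5.17 (95% interval −5.82 to −4.52, standard error 0.28, adjusted p = 5.33e-05 from edgeR's test). LHY2b (Glyma.03G261800, chromosome 3; MYB114 in RefSeq) had 6.62, 7.82 and 3.95 CPM at 80 DAG, against 357, 270 and 323 CPM at 20 DAG. It showed the largest change of all 9 members, 51.6-fold lower at 80 DAG, with a log2 fold change of −5.69 (95% interval −6.50 to −4.89, standard error 0.34, adjusted p = 6.73e-05 from edgeR's test). Among all tested genes, 673 had a more negative log2 fold change than LHY2b and 837 had a more negative one than LHY2a. Reads of near-identical copies are of uncertain assignment, and the sum over the 4 copies does not depend on how reads were divided among them. It would still be altered by shared reads that were dropped or counted repeatedly, and the counting of such reads is not given. This sum was 124, 149 and 79.0 CPM in the 80 DAG libraries, against 1722, 1437 and 1571 CPM in the 20 DAG libraries. The mean of the sum was 13.4 times as high at 20 DAG as at 80 DAG.

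GIc and GIb were higher at 80 DAG, by very different amounts, and GIa did not pass the threshold. GIc (Glyma.16G163200, chromosome 16) had 301, 278 and 294 CPM in the 80 DAG libraries, against 9.16, 19.3 and 13.6 CPM in the 20 DAG libraries. In raw counts these were 5542, 3384 and 4239 at 80 DAG and 86, 248 and 136 at 20 DAG. GIc rose 20.7-fold, with a log2 fold change of 4.37 (95% interval 3.61 to 5.13, standard error 0.32, adjusted p = 0.000122 from edgeR's test). Of all tested genes, 397 had a larger log2 fold change. GIb (Glyma.20G170000, chromosome 20), which RefSeq lists as GIGANTEA, had 243, 285 and 295 CPM at 80 DAG, against 125, 118 and 104 CPM at 20 DAG. Each 80 DAG library of GIb was above every 20 DAG library, and the log2 fold change was 1.24 (95% interval 0.78 to 1.71, standard error 0.20, adjusted p = 0.00212 from edgeR's test).

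GIa (Glyma.10G221500, chromosome 10), the maturity gene E2, had 411, 448 and 449 CPM in the 80 DAG libraries, against 317, 365 and 346 CPM in the 20 DAG libraries. The 80 DAG libraries were again all above the 20 DAG libraries, but by a small margin. The log2 fold change of 0.35 (95% interval −0.13 to 0.83, standard error 0.20) did not pass the threshold of edgeR's test (adjusted p = 0.197). With DESeq2, the package used by the study, a log2 fold change of 0.35 had an adjusted p of 0.0286 and passed it. GIa was thus the GI copy with the smallest estimated change. Its interval ended below the lower bound of the interval of GIc but overlapped the interval of GIb. The sum over the 3 GI copies was 954, 1012 and 1039 CPM at 80 DAG, against 451, 502 and 465 CPM at 20 DAG, and its mean was 2.12 times as high at 80 DAG as at 20 DAG.

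**Figure D2:**
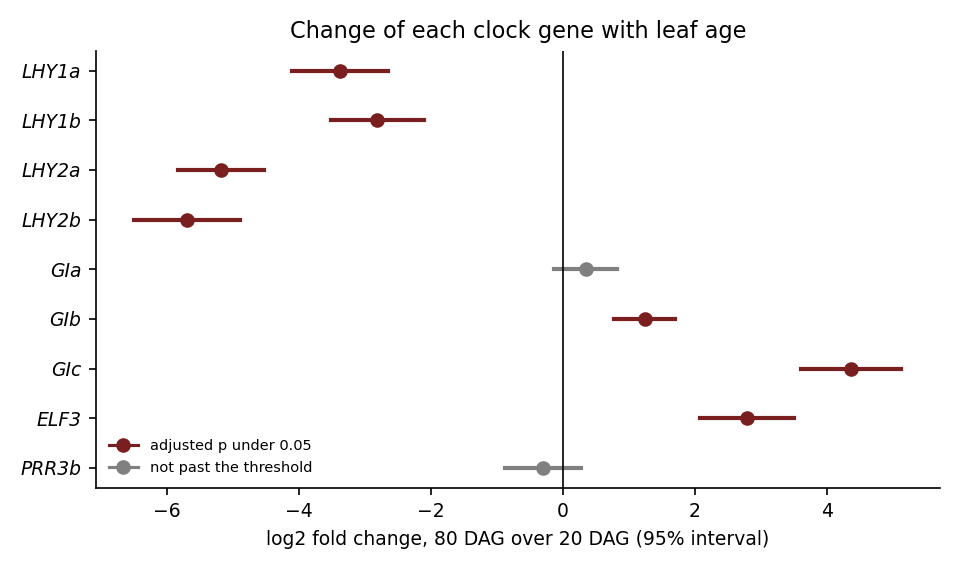
Log2 fold change of each clock gene, 80 DAG over 20 DAG, with its 95% interval from edgeR's quasi-likelihood fit; red marks an adjusted p under 0.05 and grey marks genes not past the threshold. The LHY copies lie between −5.69 and −2.81 and GIb, ELF3 and GIc between 1.24 and 4.37, whereas the intervals of GIa and PRR3b include 0.

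ELF3 (Glyma.04G050200, chromosome 4), the J gene, had 52.1, 83.8 and 58.4 CPM in the 80 DAG libraries, against 6.60, 12.5 and 8.88 CPM in the 20 DAG libraries. All 80 DAG libraries were above the highest 20 DAG library. ELF3 rose 6.90-fold, with a log2 fold change of 2.79 (95% interval 2.07 to 3.50, standard error 0.30, adjusted p = 0.000465 from edgeR's test). At 20 DAG its libraries held only 62, 161 and 89 raw counts, against 961, 1018 and 843 raw counts at 80 DAG in the same order of replicates. PRR3b (Glyma.12G073900, chromosome 12), a pseudo-response regulator, had 76.9, 105 and 84.7 CPM at 80 DAG, against 142, 96.9 and 88.3 CPM at 20 DAG. The libraries of the ages overlapped. The log2 fold change of PRR3b was −0.30 (95% interval −0.87 to 0.28, standard error 0.24, adjusted p = 0.345 from edgeR's test). A change of PRR3b was thus not detected, although its interval reaches −0.87.

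Because LHY and GI are expressed at different hours, their balance was examined within each library, where scaling between libraries plays no part. The sum over LHY copies divided by the sum over GI copies was 0.130, 0.147 and 0.0761 in the 80 DAG libraries, against 3.82, 2.86 and 3.38 in the 20 DAG libraries. On the log2 scale these ratios were −2.94, −2.77 and −3.72 at 80 DAG, against 1.93, 1.52 and 1.76 at 20 DAG. Replicate 3 of 80 DAG lay below the other libraries of its age. The ages were far apart beside this spread, with a difference of −4.88 between the means. The sums weight each copy by its counts, transcript lengths were not used here, and the mix of copies differed between the ages, so the size of this difference depends on how the copies are weighted. It was −6.32 when the log2 CPM of the copies was averaged in place of summing their CPM.

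**Figure D3:**
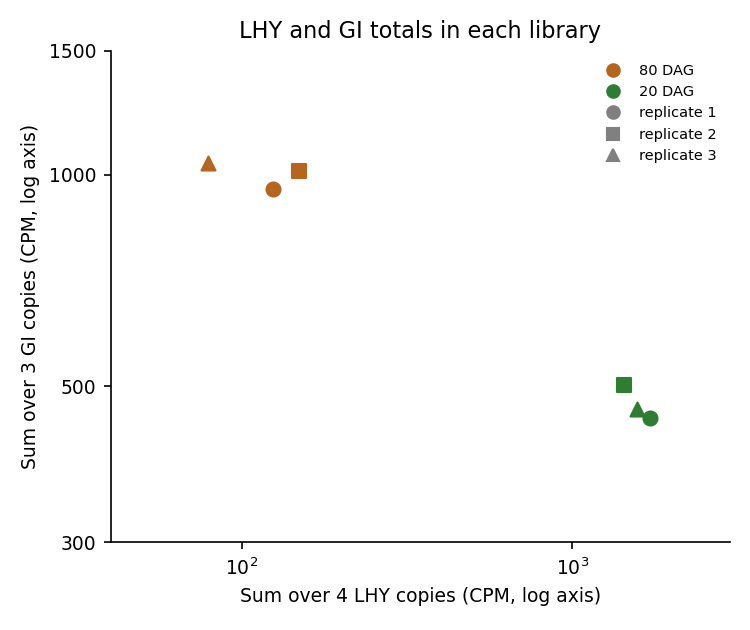
Summed CPM of the 3 GI copies against the summed CPM of the 4 LHY copies (both log axes), a point for each library. The 3 libraries of 80 DAG lie at 79.0 to 149 CPM for LHY and 954 to 1039 CPM for GI, and those of 20 DAG at 1437 to 1722 CPM for LHY and 451 to 502 CPM for GI.

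The copies of a gene did not change in proportion. LHY1a held 63.8%, 64.4% and 65.6% of all LHY counts in the 80 DAG libraries, against 49.97%, 49.98% and 49.1% in the 20 DAG libraries. The share of LHY1b was 23.5% ± 1.05 at 80 DAG and 12.4% ± 0.945 at 20 DAG (SD, n = 3 each). LHY2a held 7.08%, 6.03% and 7.11% at 80 DAG, against 16.9%, 17.9% and 18.9% at 20 DAG. The share of LHY2b was 5.20% ± 0.173 at 80 DAG and 20.0% ± 1.08 at 20 DAG (SD, n = 3 each). The LHY2 copies together took a smaller part of the LHY counts at 80 DAG, and the ratio of LHY2 to LHY1 counts was 4.50 times lower there. Within the duplicate pairs the shifts were smaller. The log2 ratio of LHY1a to LHY1b was 1.42, 1.41 and 1.56 at 80 DAG, against 2.01, 1.91 and 2.10 at 20 DAG. For LHY2a to LHY2b it was 0.41, 0.20 and 0.50 at 80 DAG, against −0.30, −0.07 and −0.12 at 20 DAG, so that all 80 DAG libraries lay above all 20 DAG libraries.

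**Figure D4:**
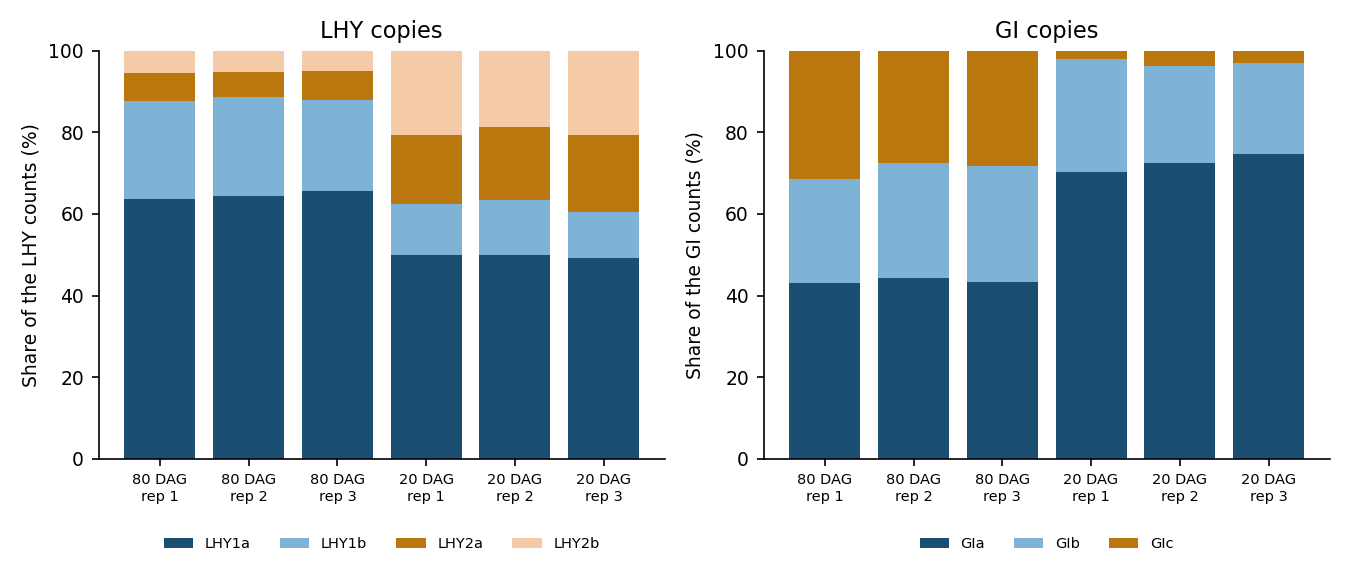
Share of each copy in the raw counts of all LHY copies and of all GI copies (%), with the 3 libraries of 80 DAG left of the 3 libraries of 20 DAG. The share of GIc is 27.5% to 31.5% at 80 DAG and 2.03% to 3.84% at 20 DAG, and the LHY2 copies take a smaller share of the LHY counts at 80 DAG.

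In the GI genes, GIc accounted for 31.5%, 27.5% and 28.3% of the GI counts in the 80 DAG libraries, against 2.03%, 3.84% and 2.92% in the 20 DAG libraries. GIa accounted for 43.5% ± 0.684 at 80 DAG and 72.5% ± 2.16 at 20 DAG (SD, n = 3 each). The share of GIb, 27.4% ± 1.65 at 80 DAG and 24.6% ± 2.75 at 20 DAG (SD, n = 3 each), was similar at both ages and its libraries overlapped. The log2 ratio of GIa to GIb was 0.76, 0.65 and 0.61 at 80 DAG, against 1.34, 1.62 and 1.73 at 20 DAG, a difference of −0.89. The ratio of GIc to GIa was 17.0 times as high at 80 DAG as at 20 DAG, and that of GIc to GIb was 9.15 times as high. For each of the 6 ratios examined, the libraries of the ages did not overlap, and a two-sided exact permutation test gave p = 0.1 (0.1 after Benjamini-Hochberg adjustment over the 6 ratios), which is the smallest p that 3 libraries against 3 can give. The ratios that involve GIc and the ratio of LHY2 to LHY1 were chosen after the values had been seen.

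Replicates within an age were closer together for some members than for others. At 80 DAG the highest library was 1.08 to 1.22 times the lowest for the GI copies and 1.60 to 2.05 times for the LHY copies. The median over the 9 members was 1.60, against a median of 1.33 over the 2788 tested genes with a mean CPM in the range of the members. That range is of means over the libraries of both ages. The LHY2 copies had only 3.95 to 8.97 CPM at 80 DAG, so these genes are not matched to their level at that age. Replicate 3 of 80 DAG was the lowest library for all 4 LHY copies and the highest for GIa and GIb, both with TMM factors and when scaled by library size alone. At 20 DAG the highest library was 1.15 to 1.32 times the lowest for the LHY copies. It was 1.15 times for GIa, 1.20 times for GIb and 2.11 times for GIc. The median over the members at 20 DAG was 1.20, against 1.48 for tested genes in the same range. When scaled by library size alone, the median over the members was 1.34 at 80 DAG and 1.33 at 20 DAG. The median of the comparison genes was not computed with that scaling. The difference in this median between the ages thus rests on the TMM factors. Under either scaling, the spread was larger at 80 DAG for each LHY copy and larger at 20 DAG for GIa, GIc, ELF3 and PRR3b. With library size alone it was 1.52 to 1.67 times at 80 DAG and 1.09 to 1.26 times at 20 DAG for the LHY copies. GIc then had 1.34 times at 80 DAG and 2.96 times at 20 DAG. For GIb the direction depended on the scaling.

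Replicate 2 of 20 DAG was the highest and replicate 1 the lowest library for GIc, ELF3 and GIa, under either scaling. With TMM factors, this order held for no other member. With library size alone, replicate 2 was the highest library for 7 of the 9 members and replicate 1 the lowest for 8 of them. Whether the order was particular to GIc, ELF3 and GIa thus depended on the scaling. The ratio of GIc counts to ELF3 counts was 1.39, 1.54 and 1.53 in the 20 DAG libraries, although the CPM of GIc in these libraries differed by 2.11 times. In the 80 DAG libraries that ratio was higher and less even, 5.77, 3.32 and 5.03. Replicate 2 of 80 DAG, the highest of its age for ELF3, was the lowest for GIc. The order of the 20 DAG libraries for LHY1a, LHY1b, LHY2a and LHY2b depended on the scaling, and no order is given for them.

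**Figure D5:**
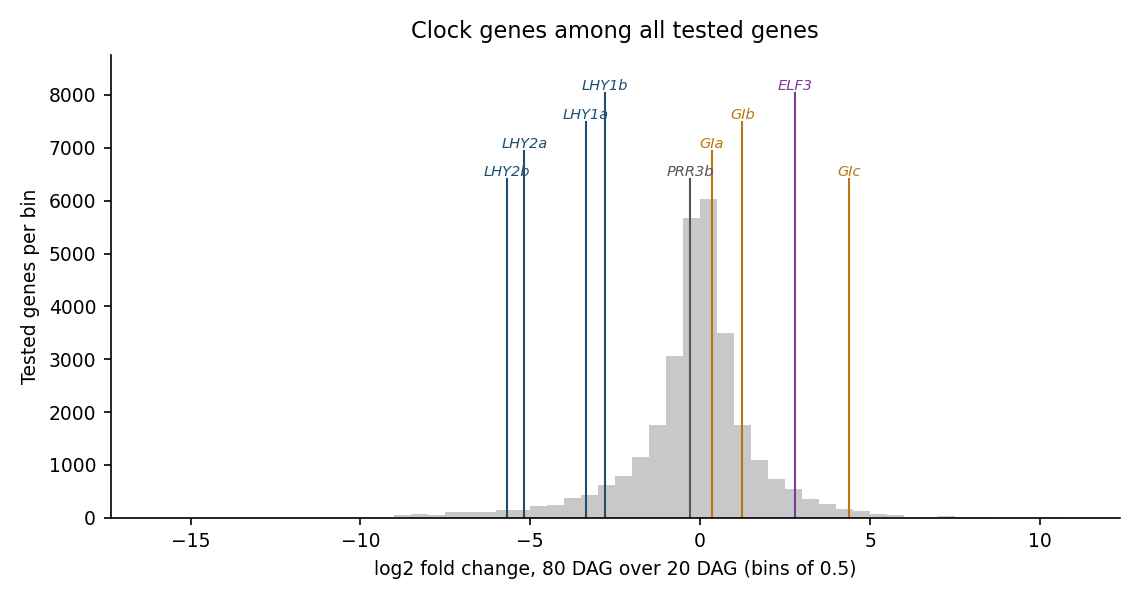
Number of tested genes in each bin of log2 fold change, 80 DAG over 20 DAG, for all 30058 tested genes (grey), with a line at the value of each clock gene. The LHY copies lie in the lower tail and GIc and ELF3 in the upper tail, while GIa and PRR3b lie near the median of −0.015.

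The genes whose pattern over the 6 libraries was most like that of the LHY copies or the GI copies were sought by Pearson's r with the mean log2 CPM of the copies, among 19099 tested genes with a mean of at least 5 CPM. The files and tables used here give these genes no name. The GI copies differ in their log2 fold changes, 0.35 for GIa, 1.24 for GIb and 4.37 for GIc. Their mean pattern is thus shaped mostly by GIc, and a high r does not mean likeness to each copy. Pearson's r also ignores the size of the change. For LHY, Glyma.05G039500 had r = 0.9999, with 8.30, 9.13 and 6.59 CPM at 80 DAG against 34.8, 31.7 and 33.3 CPM at 20 DAG, and Glyma.20G194000 had r = 0.9996. For GI, Glyma.10G276700 had r = 0.9998, with 152, 174 and 198 CPM at 80 DAG against 0.532, 2.41 and 0.898 CPM at 20 DAG, and Glyma.08G268900 had r = 0.9995. The 6 libraries fall into 2 ages and share their library sizes, so r mostly records the difference between ages. A value above 0.95 was reached by 2519 genes for LHY and by 1990 genes for GI.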

How the data were processed

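Leaf total RNA was depleted of ribosomal RNA, made into stranded libraries and sequenced as paired-end reads by the authors, who deposited raw counts per gene over 56044 gene models named with the suffix Wm82.a2.v1. Per the labels' processing notes, CASAVA 1.7, Bowtie2 and DESeq2 were used. The counting program and its strand setting are not given in the sources used here, so reads of near-identical copies and of overlapping or antisense genes are of uncertain assignment. Replicates are described as biological triplicates.

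Counts were filtered with edgeR's filterByExpr, scaled with TMM factors and tested with edgeR 4.0.16 under R 4.3.3 by its quasi-likelihood F test, with Benjamini-Hochberg adjustment over all 30058 tested genes. Standard errors were obtained from the log2 fold change and its F statistic (their quotient after taking the root of F), and 95% intervals use edgeR's total degrees of freedom. Copy ratios had 0.5 counts added. The test was first run on simulated counts in which only a small part of the genes changed. That simulation does not cover a comparison with as many DE genes as this one. Alternatives were median-of-ratios factors, library size alone, DESeq2 1.42.0, limma-voom (limma 3.58.1), other filters, a replicate block, each library left out, an adjusted p under 0.01 and a log2 fold change of at least 1. The study followed DESeq2 with independent hypothesis weighting, which was not applied here.

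The members, lists and tests were chosen with earlier results of these data known. The rule for named genes was all 9 members, the clock genes of the wider list, and the 3 genes most like the LHY and GI copies, of which 2 each are given because they have no name here. RefSeq symbols (assembly Glycine_max_v4.0) were matched by name and chromosome for 7 of 9 members, GIc and ELF3 excepted. The RefSeq table used here pairs no name with identifiers of the count table, so other clock genes, leaf marker genes and markers of other tissues were not analysed here. Sequences and gene lengths were not used here. Summaries were made in Python 3.11.15 with scipy 1.17.1.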

Additional observations from a re-analysis of the deposited data

How the results depend on the processing

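The 7 DE members kept their direction and stayed past the threshold under all 13 alternative fits of each gene, with adjusted p of at most 0.0206 (GIb with the replicate block). PRR3b passed it under none of 13 (adjusted p 0.248 to 0.865), and GIa under 1 of 13, DESeq2 (adjusted p 0.0286 to 0.369 over all of them). The number of DE members was 8 with DESeq2 and 7 under the other 14 settings, leaving out each library and the stricter thresholds included. Scaling by library size alone shifted the log2 fold change of the median tested gene by 0.23 and turned no member round. Averaging log2 CPM over copies in place of summing CPM moved the difference between ages in the log2 ratio of LHY to GI to −6.32, against −4.88, because each copy then has equal weight. It was −5.06 to −4.59 with each library left out. Libraries that share a replicate number in their titles did not deviate together (correlations across genes −0.238, −0.328 and 0.0816). No library correlated best with the library of its own number. With the replicate block 7 members were DE, 3 up-regulated and 4 down-regulated, and this fit called 38.9% of all tested genes. The wider list of clock genes could not be run, because no table used here pairs names with the identifiers of the files.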
